A study of Macaca mulatta with 13 samples.

Results

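miR-486 is the most abundant microRNA (miRNA) of these rhesus monkey thigh muscle libraries. Its levels are described here across libraries from animals on caloric restriction (CR) and on a control diet. Its members were found by name in the deposited table of miRNA counts, which gave 2 of 909 named miRNAs, miR-486-5p and miR-486-3p, the arms of one hairpin. Each arm had 1 row in the table, so no choice between gene copies was needed. In the RefSeq annotation of the assembly T2T-MMU8v2.0 the hairpin gene MIR486 lies inside the span of ANK1, and no other annotated gene overlaps it. The small RNA libraries, 8 CR and 5 Control, were made from muscle biopsies (vastus lateralis) of Macaca mulatta. The labels give the diet and the tissue of each library, while age, the degree of restriction and its duration are not stated in them. Nor do they say that each library came from a different animal. The p-values for diet thus set differences only against the spread among these libraries, which may be technical.

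miRNAs are short RNAs cut from a hairpin, and one arm is usually loaded into the silencing complex while the other is degraded. ANK1 encodes ankyrin-1, which anchors the membrane skeleton of red blood cells, and striated muscle uses a promoter inside the gene to make a short ankyrin together with miR-486. In mice and in mouse muscle cells miR-486-5p represses Foxo1, a transcription factor that drives muscle wasting, and Pax7, a transcription factor of satellite cells. It is also one of the abundant miRNAs of red blood cells, so a muscle biopsy can hold it from both sources.

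Libraries held 1154326 to 5392612 counts in named miRNAs, with the smallest in CR replicate 1 and the largest in CR replicate 6. The muscle miRNA miR-133a was detected in all 13 libraries, with 87813 to 252390 counts. Control replicate 4 stood apart in several measures below, although a check for single libraries far from their group, given at the end, did not flag it. Results that rest on it are given with and without it. In whole biopsies, fewer cells of one type and less RNA per cell cannot be told apart.

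miR-486-5p was the first-ranked miRNA in all 13 libraries, and in 11 of them it had more counts than all other named miRNAs together (7 of 8 CR and 4 of 5 Control libraries). In CR muscle its share of named counts ran from 44.6% (CR replicate 1) through a median of 60.4% to 70.7% (CR replicate 4). In Control muscle the shares were 64.0%, 52.7%, 59.4%, 42.4% and 52.9% in replicates 1 to 5. The groups overlapped, although 3 of 8 CR libraries lay above every Control library and none lay below every one. The difference of the means was 5.17 percentage points higher in CR (two-sided exact permutation p = 0.315, 0.528 adjusted over 4 measures of miR-486). Without Control replicate 4 it was 2.20 points (exact permutation p = 0.663). Counting error is small against this spread, since the 95% exact binomial interval of the smallest library, CR replicate 1, ran from 44.5 to 44.6%, but it covers counting error only and copies made by PCR are not independent molecules.

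**Figure D1:**
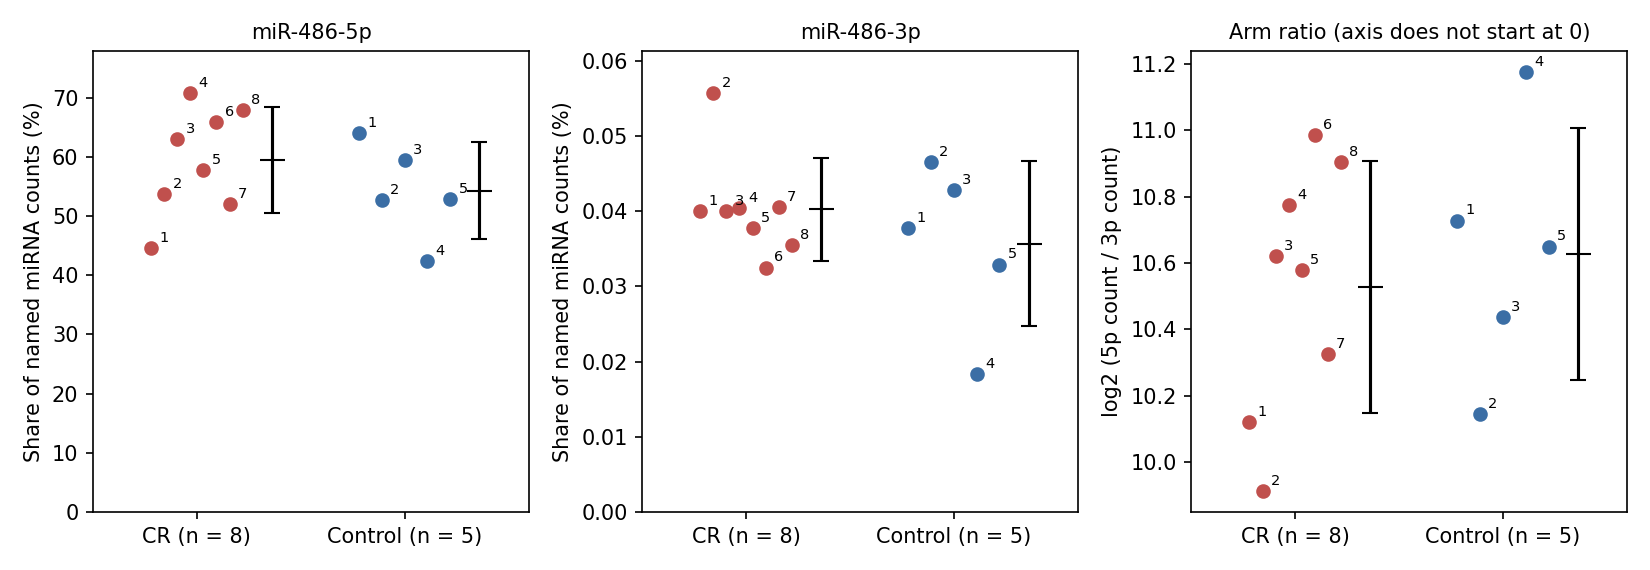
Share of named miRNA counts (%) in miR-486-5p (left) and miR-486-3p (middle), and log2 of the 5p count over the 3p count (right), in CR and Control libraries. Each point is 1 library marked with its replicate number, and bars give the mean and SD (n = 8 and n = 5); the groups overlap in all panels and Control replicate 4 has the lowest share of both arms and the highest arm ratio.

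The lead of miR-486-5p over the miRNA ranked second also varied. Reads of different miRNAs are captured with unequal efficiency, so levels of different miRNAs are compared only as counts. Second place went to miR-378a, encoded in a gene for a metabolic coactivator, in 10 libraries and to miR-10b-5p, encoded in a HOX cluster, in 3. The lead was 7.92-fold ± 2.63 (SD, n = 8) in CR and 5.57-fold ± 2.12 (SD, n = 5) in Control. It was smallest in Control replicate 4, at 2.49-fold, where miR-10b-5p took 17.0% of counts, and largest in CR replicate 4, at 12.3-fold. The other miRNAs among the 5 most abundant, miR-133a and miR-143-3p, a miRNA of smooth muscle, had mean shares of 4.79% and 2.50% over the 13 libraries.

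**Figure D2:**
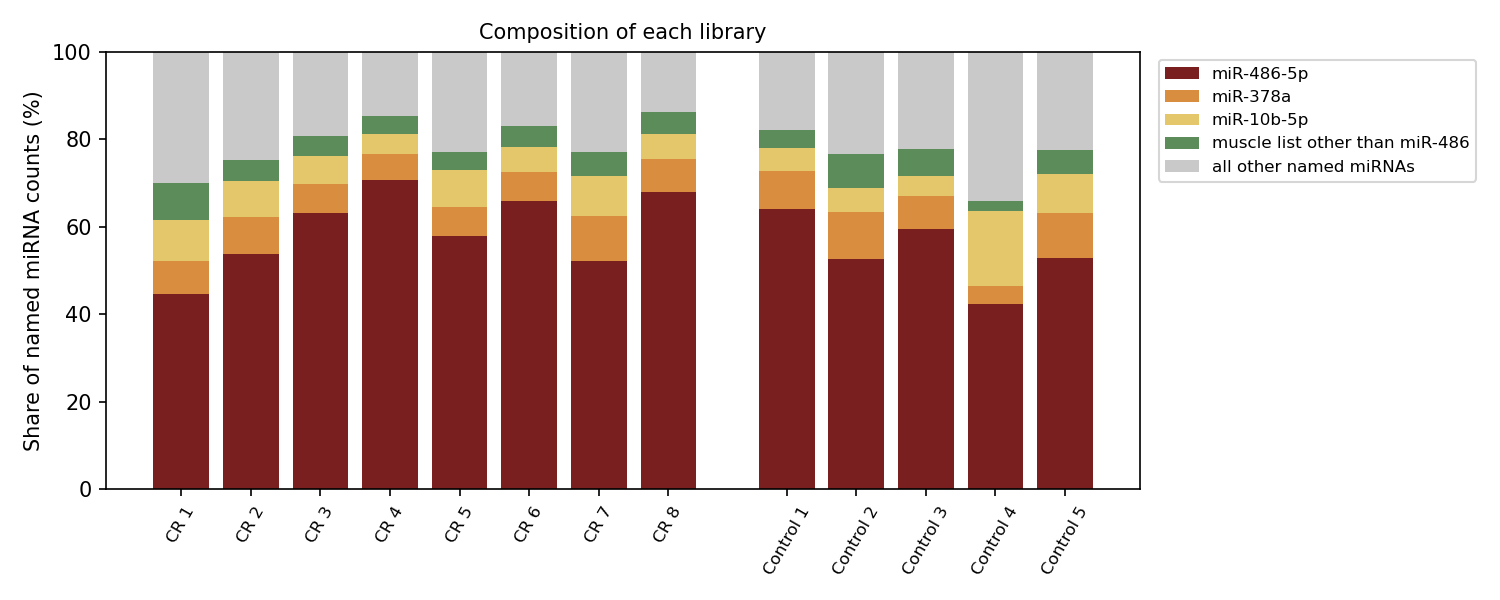
Share of named miRNA counts (%) in each library taken by miR-486-5p, miR-378a, miR-10b-5p, the muscle miRNAs other than miR-486, and all other named miRNAs. miR-486-5p fills 44.6 to 70.7% of the CR bars and 42.4 to 64.0% of the Control bars, and miR-10b-5p is widest in Control replicate 4, at 17.0%.

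A share this large compresses differences, because miR-486-5p sits in its own denominator. The counts outside miR-486 numbered 639609 to 2670516 per library, and the arms were also set against them. Per count outside miR-486 there were 0.804 (CR replicate 1) to 2.42 (CR replicate 4) reads of miR-486-5p in CR muscle, with a median of 1.54. In Control muscle there were 1.78, 1.12, 1.47, 0.737 and 1.12 in replicates 1 to 5. On this scale miR-486-5p varied 3.28-fold over the 13 libraries, against 1.67-fold as a share. The CR libraries covered nearly the whole range, and the lowest value was that of Control replicate 4.

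miR-486-3p, the minor arm, was detected in every library with 462 to 2030 counts, and ranked 49th to 98th. In CR muscle its share of named counts ran from 0.0325% (CR replicate 6) through a median of 0.0400% to 0.0557% (CR replicate 2). In Control muscle the shares were 0.0378%, 0.0465%, 0.0428%, 0.0184% and 0.0329% in replicates 1 to 5. The 95% exact binomial interval was 0.0533 to 0.0582% for CR replicate 2 and 0.0172 to 0.0196% for Control replicate 4. All CR libraries thus lay within or above the range of the 4 other Control libraries except CR replicate 6, which was slightly below it. The means differed by 0.00462 percentage points, higher in CR (two-sided exact permutation p = 0.396, 0.528 adjusted over 4). Without Control replicate 4 the difference was 0.000296 points (exact permutation p = 0.954), and without CR replicate 2 it was 0.00242.

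Counts were also tested across all miRNAs with edgeR's quasi-likelihood test. Of 263 miRNAs tested between CR and Control, 0 (0%) passed an adjusted p of 0.05, and 7 (2.66%) had an unadjusted p under 0.05. Neither arm of miR-486 was among the 7. The fitted level of miR-486-5p in CR was 1.35 times that in Control, with a 95% interval of 0.825 to 2.20 times (log2 fold change 0.43 ± 0.34, SE). For miR-486-3p it was 1.32 times, with an interval of 0.859 to 2.03 times (0.40 ± 0.30). The adjusted p was 0.985 for both, and 5 of 8 CR libraries lay above the Control mean share for 5p and 6 of 8 for 3p. These intervals leave room for no difference and for a lower level in CR, down to 0.825 times that of Control for 5p and 0.859 times for 3p. They also leave room for a level as high as 2.20 times for 5p and 2.03 times for 3p. Fitted levels were higher in CR for 136 of the 263 miRNAs (51.7%), so the direction of the arms is common among all miRNAs tested.

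The size of the fold change depended on the scaling, while its direction did not. With library totals alone, where miR-486-5p sets most of the total, the log2 fold change of miR-486-5p was 0.13 ± 0.16 and that of miR-486-3p 0.18 ± 0.28. Under that scaling 216 of 263 miRNAs had fitted levels below those of Control, and the median over all miRNAs was -0.26. With totals and trimmed mean of M-values (TMM) factors taken from the counts outside miR-486, the arms were at 0.37 ± 0.33 and 0.34 ± 0.28, and the median of all miRNAs was -0.0606. TMM factors, which correct for a few miRNAs that fill a library, ran from 0.624 to 1.76 with miR-486 included and from 0.769 to 1.15 without it. The highest of the first set, 1.76, belonged to Control replicate 4, whose factor was 1.09 once miR-486 was set aside. Without Control replicate 4 the log2 fold changes were 0.25 ± 0.31 for 5p and 0.17 ± 0.22 for 3p, and without Control replicate 1 they were 0.63 ± 0.35 and 0.54 ± 0.31.

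**Figure D3:**
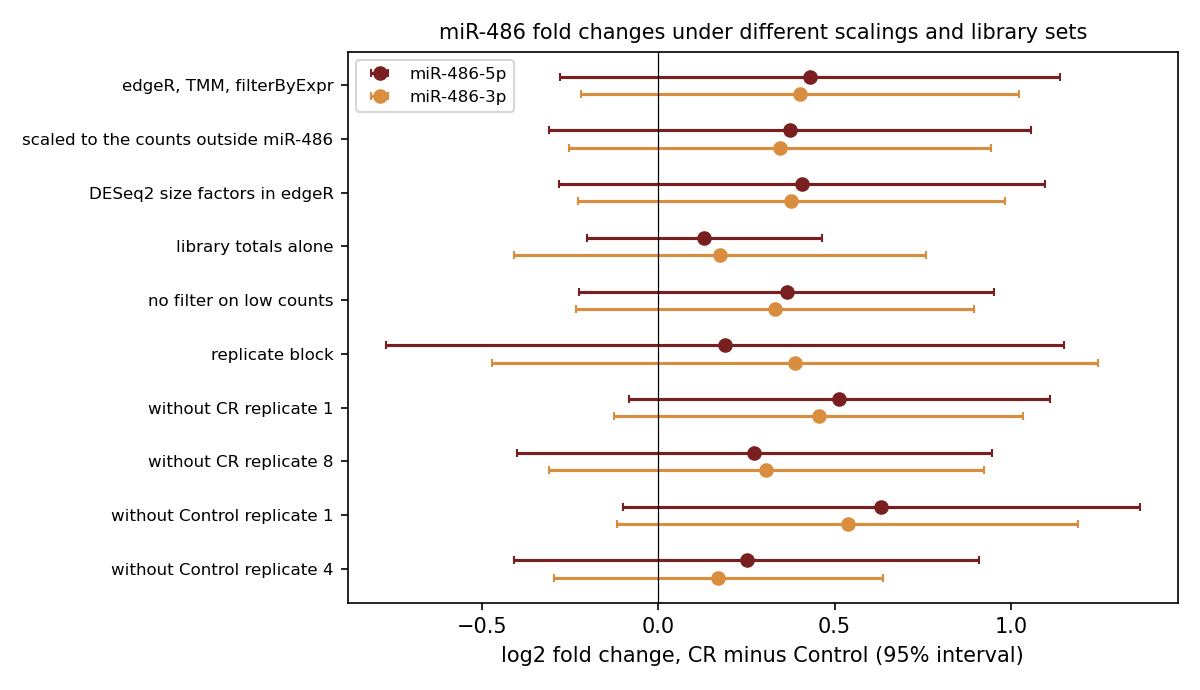
Log2 fold change, CR minus Control, of miR-486-5p and miR-486-3p with 95% intervals under several scalings and sets of libraries (top row, the values reported first; block, the 5 numbers that both diets share). All estimates lie above 0, from 0.13 to 0.63 for 5p and from 0.17 to 0.54 for 3p, and every interval includes 0.

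The 5p arm outnumbered the 3p arm by about 3 orders of magnitude in both diets. There were 965 (CR replicate 2) to 2026 (CR replicate 6) reads of 5p per read of 3p in CR muscle, with a median of 1552. In Control muscle there were 1695, 1133, 1387, 2310 and 1606 in replicates 1 to 5. Control replicate 4 had the highest ratio of all libraries and CR replicate 2 the lowest. On the log2 scale the ratio was 10.53 ± 0.38 in CR (SD, n = 8) and 10.63 ± 0.38 in Control (SD, n = 5), a difference of -0.0991 (two-sided exact permutation p = 0.649, also 0.649 adjusted over 4, with 5 of 8 CR libraries below the Control mean). Without Control replicate 4 the difference turned to 0.0376 (exact permutation p = 0.863), and without CR replicate 2 it was -0.0113. Both arms come from the same library, so depth and scaling cancel in this ratio. The SD between all libraries, 0.37, was 8.62 times the 0.0425 that counting error alone would give.

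**Figure D4:**
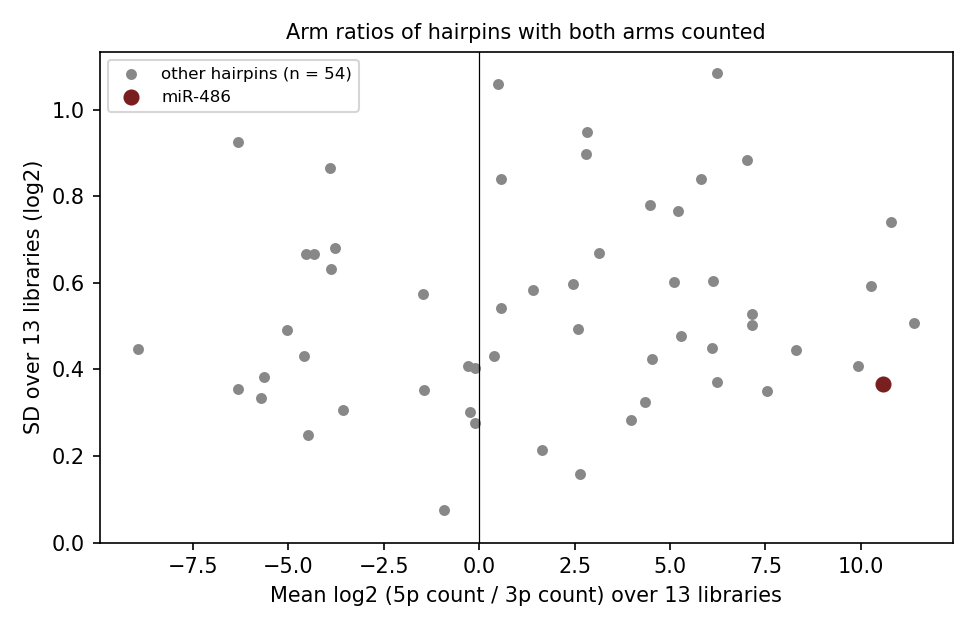
Mean log2 ratio of the 5p count over the 3p count (horizontal axis) and its SD over 13 libraries (vertical axis) for 55 hairpins with both arms counted. miR-486 lies at 10.57 and 0.37, near the right end, and 34 hairpins lie right of 0, where the 5p arm had more counts.

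Among 55 hairpins whose arms each had a mean of at least 10 counts, the arm ratio of miR-486 was the third most unequal, behind let-7a and let-7f. The geometric mean over the 13 libraries was 1515 reads of the major arm per read of the minor arm for miR-486, 2671 for let-7a and 1769 for let-7f. The median size of the log2 ratio over the 55 was 4.49. The SD of the ratio of miR-486 over libraries ranked 14th from the lowest, against a median SD of 0.49. A hairpin whose minor arm had a mean under 10 counts is left out, so the rank holds only among the 55. More unequal hairpins may exist outside this set. One hairpin outside it is miR-143, whose 3p arm had 1142387 counts over all libraries, and its ratio was not calculated. Between CR and Control 2 of the 55 ratios (3.64%) had an exact permutation p under 0.05, miR-486 was not one of them, and 0 passed after adjustment.

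The arms rose and fell together across libraries. Per count outside miR-486, the log2 levels of 3p and 5p had a Pearson r of 0.757 (permutation p = 0.000420, 0.00168 adjusted over 4 relations) and a Spearman rho of 0.747 (permutation p = 0.00488, 0.0195 adjusted) over 13 libraries. Without Control replicates 4 and 5, the farthest from the median of 3p, r was 0.721, and within the 8 CR libraries it was 0.741. Both values share a denominator, which adds to such a correlation by itself. CR replicate 4 had the highest level of both arms, with 1381 reads of 3p per 1000000 counts outside miR-486. Control replicate 4 had the lowest of both, with 319, against 698 to 1381 in the other 12 libraries. CR replicate 2 had the second highest level of 3p, at 1205, beside a 5p level of 1.16, below the CR median. The ratio of the arms against the library total gave r = 0.524 (permutation p = 0.0651, 0.0966 adjusted) and rho = 0.484 (permutation p = 0.0974, 0.195 adjusted), and r was 0.283 without CR replicates 1 and 6.

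**Figure D5:**
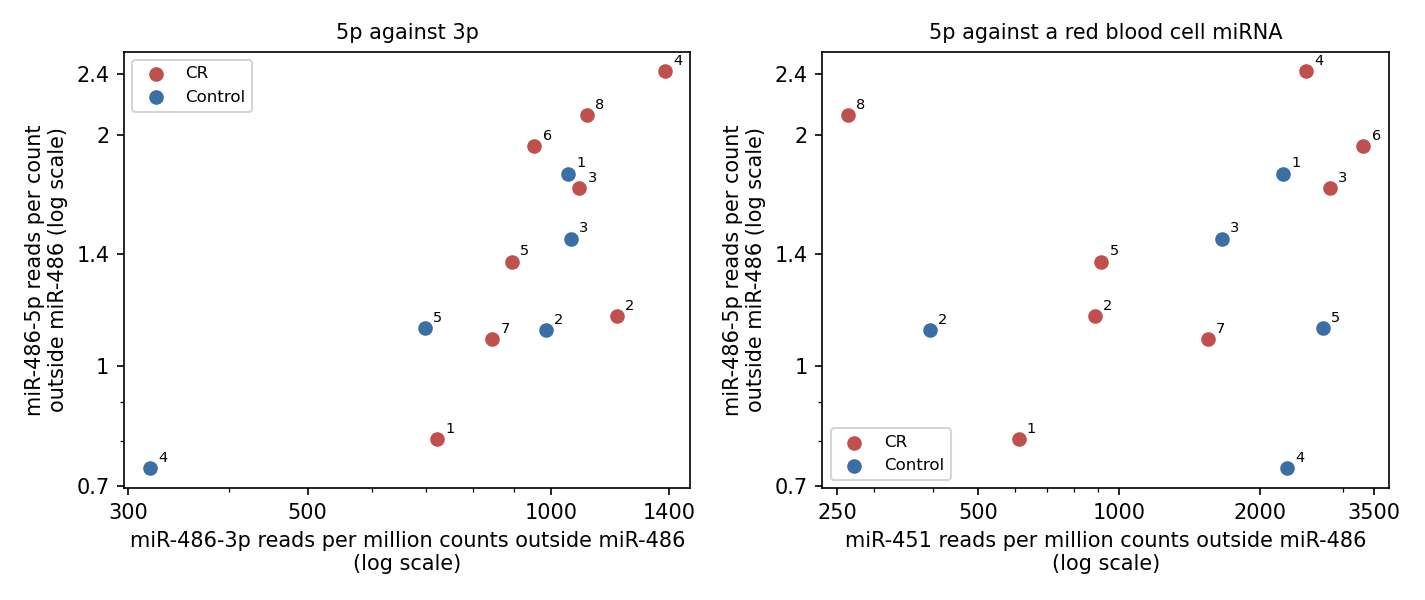
Reads of miR-486-5p per count outside miR-486 against reads of miR-486-3p (left) and of the red blood cell miRNA miR-451 (right) per 1000000 counts outside miR-486, all on log axes. Each point is 1 library marked with its replicate number; the arms rise together from Control replicate 4 at the lower left to CR replicate 4 at the upper right, while CR replicate 8 pairs a high 5p level with the lowest miR-451.

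Red blood cell miRNAs were set beside miR-486 because red cells carry it too. The defining marker miR-451, which is made without Dicer during red cell development, had 264 (CR replicate 8) to 3316 (CR replicate 6) reads per 1000000 counts outside miR-486 in CR muscle, with a median of 1230. In Control muscle it had 2233, 394, 1656, 2279 and 2715 in replicates 1 to 5. miR-451 thus varied 12.6-fold over the 13 libraries, against 3.28-fold for miR-486-5p. miR-144, from the same hairpin cluster as miR-451, had 0 to 8 counts per library and was not tested. The library with the least miR-451, CR replicate 8, had the second highest share of miR-486-5p, at 67.9%. Control replicate 4, with the lowest miR-486-5p, had 2279 reads of miR-451, close to the Control median of 2233. Control replicate 5 had the most miR-451 among the Control libraries, 2715 reads, and a 5p share of 52.9%, below the Control mean of 54.3%. Some other libraries had both low or both high. CR replicate 1 had 610 reads of miR-451 and a 5p share of 44.6%. CR replicates 4 and 6 had 2508 and 3316 reads and 5p shares of 70.7% and 65.9%.

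The levels of miR-451 and miR-486-5p gave r = 0.142 (permutation p = 0.644, also 0.644 adjusted over 4) and rho = 0.258 (permutation p = 0.395, also 0.395 adjusted). Without the 2 libraries farthest from the median of miR-451, CR replicate 8 and Control replicate 2, r was 0.508, and within the CR libraries it was 0.278. There were 583 (CR replicate 6) to 8042 (CR replicate 8) reads of miR-486-5p per read of miR-451 in CR muscle, with a median of 1138. In Control muscle there were 797, 2829, 885, 323 and 413 in replicates 1 to 5. The mean log2 ratio was 10.26 ± 1.22 in CR (SD, n = 8) and 9.58 ± 1.22 in Control (SD, n = 5). The means differed by 0.67 (two-sided exact permutation p = 0.370, 0.528 adjusted over 4), and 5 of 8 CR libraries were above the Control mean. It was 0.28 without CR replicate 8, 0.36 without Control replicate 4, 0.45 without Control replicate 5 and 1.14 without Control replicate 2. By edgeR the log2 fold change of miR-451 was -0.16 ± 0.55 (adjusted p 0.985). How much of the miR-486 in a biopsy came from red cells was not tested.

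The other muscle miRNAs, known for roles in myoblast differentiation and fibre type, shift in share when miR-486 does, so they were set against the counts outside it. The list held miR-1, miR-133a, miR-133b, miR-206, miR-208a, miR-208b and miR-499, with 13 named arms, of which 11 had counts and 6 passed the filter on low counts. Out of all named counts they took 5.13% ± 1.39 in CR (SD, n = 8) and 5.18% ± 2.07 in Control (SD, n = 5). Most of this was miR-133a alone, at 4.74% in CR and 4.88% in Control, so shares of the list mainly follow that miRNA. Out of the counts outside miR-486 the list took 12.8% ± 2.31 in CR, with values from 9.60% (CR replicate 5) through a median of 12.9% to 15.8% (CR replicate 8). In Control the list took 11.8% ± 4.81, with 11.5%, 16.8%, 14.8%, 4.14% and 11.5% in replicates 1 to 5. The groups overlapped, and the Control SD rests on replicate 4. Without it the Control mean was 13.7% ± 2.59 (SD, n = 4), above that of CR.

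The denominator also changed the order of the libraries. CR replicate 1, with the second lowest share of miR-486-5p, had the highest muscle share of all named counts at 8.33%, and at 15.0% the third highest of the counts outside miR-486. CR replicate 4, with the most miR-486-5p, ranked 11th on the first measure at 4.08% and 6th on the second at 14.0%. Across the 13 libraries, the log2 share of the muscle list outside miR-486 and that of miR-486-5p gave r = 0.501 (permutation p = 0.0724, 0.0966 adjusted over 4) and rho = 0.286 (permutation p = 0.344, 0.395 adjusted). Without Control replicates 4 and 2, the farthest from the median of the list, r was 0.283, and without Control replicate 4 alone it was 0.133, so the relation rests on that library.

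By edgeR the fitted levels of all 6 tested muscle arms were above those of Control, and 0 passed the test. Of all 263 miRNAs, 136 (51.7%) were above Control. The median log2 fold change of the 6 was 0.43, beside 0.0103 over all 263. With library totals alone 5 of the 6 were above Control, beside 47 of the 263, and miR-133a was at -0.0435. Without Control replicate 4, 3 of the 6 were higher and their median was 0.17. Of the 261 miRNAs tested both with and without that library, 148 were then higher and the median was 0.0603. With all libraries, the log2 fold change of miR-1-3p, which promotes muscle differentiation, was 0.91 ± 0.45 (SE), on 157 to 1175 counts per library. For miR-206, a miRNA of regenerating fibres, it was 0.65 ± 0.33, on 4651 to 15522 counts per library. For miR-133a and miR-133b-3p, which regulate myoblast growth, the values were 0.19 ± 0.30 and 0.20 ± 0.27. For miR-208b-3p and miR-499-5p, encoded in slow myosin genes, they were 0.71 ± 0.95 and 0.20 ± 0.84, on counts of 2 to 95 and 3 to 149 per library. With Control replicate 4 left out, the values of miR-1-3p, miR-206, miR-133a, miR-133b-3p, miR-208b-3p and miR-499-5p were 0.66, 0.42, -0.0508, -0.0201, 0.36 and -0.13. By edgeR each of these arms had an adjusted p of 0.985 with all libraries and of 0.969 without Control replicate 4. Scaled to the counts outside miR-486, miR-1-3p and miR-206 were at 0.86 ± 0.45 and 0.60 ± 0.32. Of the remaining arms, miR-133b-5p had 13 counts over all libraries, miR-1-1-5p 12, miR-499-3p 3, miR-1-2-5p and miR-208a-5p 2 each, and miR-208a-3p and miR-208b-5p 0.

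Control replicate 4, which had the least miR-486, was also the highest Control library for markers of several other cell types. The fibroblast miRNAs, both arms of miR-199a and miR-214, were all detected and took 0.107 to 0.400% of the counts outside miR-486 in CR and 0.141 to 0.626% in Control, where the top value was that of replicate 4 and the next 0.409%. The endothelial miRNAs miR-126, miR-221 and miR-222, with 5 of 5 arms detected, took 0.0804 to 0.190% in CR and 0.121 to 0.289% in Control, again with replicate 4 highest. The leukocyte miRNAs miR-142, miR-150, miR-223 and miR-342, with 7 of 7 arms detected, took 0.0774 to 0.193% in CR and 0.0654 to 0.215% in Control, with replicate 4 highest. The smooth muscle miRNAs miR-143 and miR-145, with 4 of 4 arms detected, took 2.89 to 11.2% in CR and 3.16 to 9.14% in Control, with replicate 4 highest in its group. Among them miR-199a-3p and miR-214-3p had log2 fold changes of -0.26 ± 0.29 and -0.40 ± 0.34, miR-221-3p and miR-222-3p of -0.19 ± 0.23 and -0.22 ± 0.28, miR-150-5p and miR-342-3p of -0.15 ± 0.28 and 0.39 ± 0.26, and miR-143-3p and miR-145-5p of -0.0870 ± 0.33 and -0.26 ± 0.31. Once Control replicate 4 was left out, these 8 values were -0.0580 and -0.0433, -0.0550 and 0.0645, 0.0243 and 0.51, and -0.0230 and -0.0814 in the same order. The medians of the fibroblast, endothelial, leukocyte and smooth muscle lists were then -0.0939, 0.00476, -0.0396 and -0.0230, against -0.42, -0.20, -0.22 and -0.0870 with all libraries. The arms named do not span the endothelial, leukocyte and smooth muscle lists. Of the 4 endothelial arms tested, 1 was fitted higher in CR with all libraries, at 0.0103. Without Control replicate 4, 2 of the 4 were higher, and the highest was at 0.46. Of the 5 leukocyte arms tested, 1 was higher and 4 were lower with all libraries, down to -0.71. Without Control replicate 4, 2 were higher and 3 lower, down to -0.34. Of the 3 smooth muscle arms tested, 0 were higher with all libraries. Without Control replicate 4, 1 was higher, at 0.0393. Over all miRNAs tested, 136 of 263 were higher with all libraries and 148 of 261 without Control replicate 4. The part of these cells in the miR-486 level of that library was not tested.

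Other miRNAs are abundant in red cells but also made in many tissues. Of these miR-16, miR-92a and miR-25, with 5 of 6 arms detected, took 4.73% ± 1.16 of the counts outside miR-486 in CR (SD, n = 8) and 5.21% ± 1.18 in Control (SD, n = 5). The fitted levels of all 4 tested arms were below those of Control, as were those of 127 of all 263 miRNAs (48.3%), and 0 passed. Their median log2 fold change was -0.0943, and it was -0.20 without Control replicate 4 and -0.34 with library totals alone. Those of miR-92a-3p and miR-25, the most abundant, were -0.0654 ± 0.24 and -0.0562 ± 0.24, and -0.15 and -0.0983 without Control replicate 4.

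Likeness to miR-486 over the 13 libraries was described with Spearman's rho of log2 levels per count outside miR-486, over 100 other miRNAs with a mean share of at least 0.01%. All points share the same libraries and denominator, and no test was made. Closest to miR-486-5p, after its own 3p arm at 0.747, were miR-193b-3p (rho 0.676), miR-365-3p (0.659), miR-1-3p (0.643), miR-885-5p (0.643) and miR-197-3p (0.544). miR-193b and miR-365 are encoded side by side in mammalian genomes. Closest to miR-486-3p were miR-885-5p (0.802), miR-193b-3p (0.742), miR-197-3p (0.698), miR-196a-5p (0.621) and miR-574 (0.588). Its own 5p arm, at 0.747, fell between miR-885-5p and miR-193b-3p. The muscle miRNA miR-133a ranked 19th for either arm (0.297 and 0.275 for 5p and 3p), and miR-451 ranked 21st for 5p (0.258) and 66th for 3p (-0.110). At the other end, miR-199a-3p was the least like miR-486-5p of all 100, with a rho of -0.868, and was picked out after its value was seen.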

How the data were processed

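The values deposited by the authors for each miRNA in each library are whole numbers and were taken as raw read counts with no normalization. Per the labels' protocols, fragments of 17 to 35 nt were cut from a gel and made into libraries with the Illumina TruSeq small RNA kit. Per the submitters' processing notes the build was Mmul_8.0.1. The aligner and the counting tool are not given in the sources. Of 1703 rows, 702 are predicted loci and were used only in alternatives. The highest row was kept for 67 names listed more than once, and names with nearly the same reads (a difference of at most 1%, 3 pairs) were merged, leaving 909 miRNAs. Library totals were 1154326 to 5392612 counts, so a share of one library has little counting error beside the spread between libraries.

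Tests across all miRNAs used edgeR 4.0.16 under R 4.3.3 (robust quasi-likelihood fit, TMM factors, filterByExpr, Benjamini-Hochberg adjustment over 263 miRNAs, threshold 0.05). For shares and log2 ratios, exact two-sided permutation tests ran over all splits into 8 and 5, with 0.000777 as the smallest possible p, and relations with 100000 permutations. Log2 levels used for likeness and for arm ratios of all hairpins had 0.5 added to each count. Scripts were tested on simulated data. Alternatives were DESeq2 1.42.0, other scalings and filters, summed copies, the replicate number as a block, and leaving out each library. miRNAs named are both arms of miR-486, the muscle and red cell lists, the 5 most abundant, the 5 most like each arm, and the 2 most abundant of each other list. The result of 1 list of miRNAs grouped by their targets is not reported here. The members and lists were chosen with earlier results of these data known. Mature sequences are not printed because no sequence table was used here.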

Additional observations from a re-analysis of the deposited data

Results flagged for a closer look

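Each of 10 measures of the libraries was checked in both diets for a single library far from the rest of its group, 20 groups in all, and chance flags about 1 group in 20. CR replicate 2 held 0.0557% of its counts in miR-486-3p, and the nearest CR library 0.0405%, a gap of 0.653 of the range of the 8 CR libraries, against a critical value of 0.526. CR replicate 8 had a log2 ratio of miR-486-5p to miR-451 of 12.97, and the nearest CR library 10.55, a gap of 0.641 of the range. No other library was flagged, and Control replicate 4 was thus not flagged in any measure checked.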

How the results depend on the processing

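No measure of miR-486 passed its threshold under any of the alternatives run, and 0 miRNAs passed under each fit across the table. For shares and log2 ratios, the test with the replicate number as a block could not have passed. It flipped the signs of 5 differences, and its smallest possible p was 0.0625. With single libraries left out, the difference in the share of miR-486-5p ran from 2.20 to 7.60 percentage points, that of miR-486-3p from 0.000296 to 0.00733 points, that of the log2 ratio to miR-451 from 0.28 to 1.14, and the log2 fold changes of 5p and 3p from 0.25 to 0.63 and from 0.17 to 0.54. The difference in the log2 arm ratio was lowest without Control replicate 2, at -0.22, and turned to 0.0376 without Control replicate 4, the only change of direction among the tested measures, and the cause was not tested. The muscle share outside miR-486 ran from -0.876 (without Control replicate 4) to 2.28 points, around 1.03. Over other scalings, filters and tools the 5p fold change ran from 0.13 (library totals alone) to 0.41 and that of 3p from 0.18 to 0.38.

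Both diets share replicate numbers 1 to 5, but same-numbered libraries did not deviate together (correlations from -0.23 to -0.0368), so the numbers were not taken as pairs. With the replicate block the log2 fold changes were 0.19 for 5p and 0.39 for 3p, the 5p and 3p shares differed by 3.67 and 0.00710 points, the arm ratio by -0.23 and the ratio to miR-451 by 0.50, and 0 miRNAs passed.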
